A study of Homo sapiens with 11 samples.

Results

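The genes described here are 9 plasma membrane amino acid transporters that tumour cells use, listed by name among the 31325 gene symbols of the series, with no measured value in the rule: SLC7A5, SLC3A2, SLC7A11, SLC7A1, SLC38A1, SLC38A2, SLC1A5, SLC1A4 and SLC1A3. All 9 had a value on every array. They and the gene lists below were chosen with earlier results of these data known, so their counts beside all genes are descriptions only. Expression was read on 11 Illumina HumanHT-12 BeadChips, which carry bead-bound probes for mRNA. The cells were MDA-MB-231, an established triple-negative breast cancer line of mesenchymal appearance, and SKOV3, an established ovarian cancer line with amplified ERBB2, named so in the labels while the study's text calls it SKOV3.ip1, a derivative. Each line was transfected with miR-365a-3p or with a control miRNA whose sequence the sources used here do not give. There were 3 arrays of MDA-MB-231 with miR-365a-3p, 3 of MDA-MB-231 with control miRNA, 3 of SKOV3 with miR-365a-3p and 2 of SKOV3 with control miRNA. The sample labels place the RNA at 48 h, those of the controls giving 48 without a unit, whereas the series description says 24 h. Nothing in the labels says whether replicates were separate cultures, so that the p-values below measure the spread between these arrays only.

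Amino acids cannot cross the plasma membrane unaided, and tumour cells depend on a small set of carriers. SLC7A5 is the light chain of LAT1, which brings in leucine and other large neutral amino acids in exchange for glutamine. It reaches the membrane only when bound to the heavy chain SLC3A2, also called CD98 or 4F2hc. SLC7A11, the light chain of the cystine and glutamate exchanger xCT, uses the same heavy chain and feeds glutathione synthesis. SLC7A1 carries arginine and lysine without a heavy chain. SLC38A1 and SLC38A2 take up glutamine and other small neutral amino acids together with sodium, SLC1A5 exchanges glutamine and other neutral amino acids, SLC1A4 exchanges alanine, serine and cysteine, and SLC1A3 is a sodium-driven glutamate and aspartate carrier. A microRNA lowers the level or translation of mRNAs that pair with its seed, the bases near its 5′ end. The RNA introduced into both lines is printed here with seed bases 2 to 8 in capitals, as the RefSeq annotation of GRCh38.p14 gives it. The second human copy of the gene, hsa-miR-365b, has an identical mature 3p sequence and so the same seed. The mature sequences lie at chr16:14309340-14309361 and chr17:31575478-31575499, both on the plus strand.
hsa-miR-365a-3p: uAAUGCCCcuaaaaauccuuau

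Values are on the log2 scale after quantile normalization, and a difference is always miR-365a-3p minus control miRNA unless stated otherwise. One unit is thus a doubling of array signal, and levels of separate genes are not compared because their probes differ. A gene was called changed at an adjusted p under 0.05 in limma, with Benjamini-Hochberg adjustment over all 31325 genes. Most genes on the array gave little more than background: 60% of values lay below 7.43, and a gene under that level was taken as near the floor. The identity of the lines was checked on markers. ERBB2 was at 7.61 ± 0.073 (SD, n = 3) in MDA-MB-231 controls and at 10.86 ± 0.065 (SD, n = 2) in SKOV3 controls, and 4 of 6 SKOV3 markers (ERBB2, GRB7, EPCAM and KRT19) were called higher in SKOV3 controls, while KRT7 and ERBB3 were not. Of 5 MDA-MB-231 markers, ZEB1 alone was called higher in MDA-MB-231 controls, and the mesenchymal filament gene VIM was near 13.7 in both lines. The mean over the SKOV3 marker list nevertheless separated the lines on every array, at 8.06 to 8.13 in MDA-MB-231 controls, 8.40 to 8.46 in MDA-MB-231 with miR-365a-3p, 9.50 to 9.57 in SKOV3 controls and 9.39 to 9.54 in SKOV3 with miR-365a-3p. Within MDA-MB-231 this mean was higher on every miR-365a-3p array than on every control array. Of its genes, EPCAM (0.81) and KRT7 (0.98) were called higher there with miR-365a-3p. In SKOV3, KRT7 (1.27) was called higher and ERBB2 (-1.57) and GRB7 (-0.70) were called lower. The mean over the MDA-MB-231 marker list moved with the treatment in both lines. It was higher on every control array (10.74 to 11.19 over both lines) than on every miR-365a-3p array (9.69 to 10.42). Its part in the results below was not tested. Correlation between any pair of arrays ranged from 0.842 to 0.996.

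One array has to be described before the results. Replicate 1 of SKOV3 with miR-365a-3p stood apart from replicates 2 and 3 for several of the transporters, as the values below show. It also had an ERBB2 value of 8.52, against 9.69 and 9.65 in the other two, and a VIM value of 12.63, against 13.42 and 13.37. The SKOV3 controls read 10.91 and 10.82 for ERBB2 and 13.70 and 13.69 for VIM. Of the treated SKOV3 arrays, replicate 1 thus lay furthest from the controls for both genes. The 75th percentile of the deposited values of replicate 1 was 7.67, and those of replicates 2 and 3 were 7.74 and 7.80. Replicate 1 of MDA-MB-231 with miR-365a-3p shared part of this pattern. Its VIM value was 12.69, against 13.40 and 13.57, and its 75th percentile was 7.56, against 7.65 and 7.65. Deviations of these replicate 1 arrays from their group means correlated at 0.70 over 6853 genes, and the cause was not tested. For the 9 transporters, calls that change when the SKOV3 array is left out are given both ways.

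In MDA-MB-231 cells, 5 of the 9 transporter genes fell with miR-365a-3p and 1 rose. SLC7A5 fell by 3.40 on the log2 scale, SLC7A1 fell by 2.88, SLC38A1 fell by 1.73, SLC1A5 fell by 1.18 and SLC38A2 fell by 0.97, whereas SLC7A11 rose by 0.32. In SKOV3 cells, 4 fell and 1 rose, with SLC7A5, SLC7A1, SLC38A2 and SLC38A1 among the former and SLC7A11 again the latter. Of all genes, 11.7% were called lower and 14.4% higher in MDA-MB-231, and 7.11% were called lower and 7.25% higher in SKOV3. In either direction, 6 of the 9 genes were called in MDA-MB-231, beside 26.1% of all genes, and 5 in SKOV3, beside 14.4%. These shares include the many genes near the floor, whereas 7 of the 9 transporters had a mean above it. When only the 15662 genes above the median signal were fitted, 3652 were called lower and 4675 higher in MDA-MB-231. In SKOV3 these numbers were 2328 and 2804. For the 4 genes that fell in both lines every treated array lay below every control array of its line, which held for 10.3% of all genes in both lines, 17.0% in MDA-MB-231 and 18.2% in SKOV3. These 4 compare with 5.39% of all genes called lower in both, and the single gene that rose in both compares with 5.76%. The median difference of the 9 genes was -0.97 in MDA-MB-231 and -0.19 in SKOV3, beside 0.0064 and 0.0066 over all genes. The share of genes called lower depended on the scaling. In MDA-MB-231, 3663 genes were called lower and 4511 higher after quantile normalization, but 5620 lower and 2275 higher on the values as deposited, and in SKOV3 the split went from 2228 lower and 2270 higher to 4401 lower and 1201 higher.

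**Figure D1:**
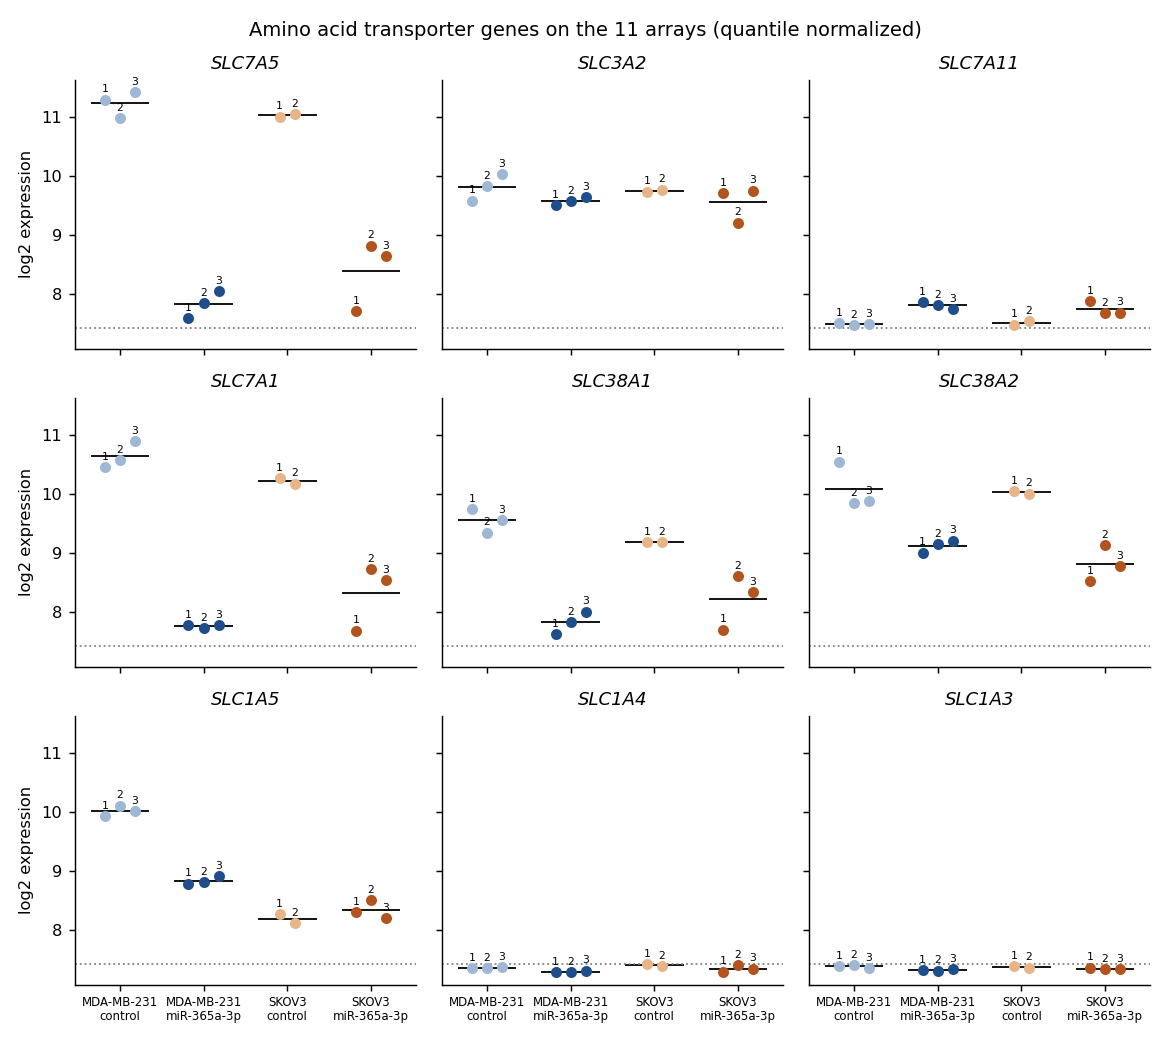
Normalized log2 expression (vertical axis) of the 9 transporter genes in the 4 groups (horizontal axis). Each point is an array with its replicate number, black lines are group means and the dotted line is the level below which 60% of values lie (7.43). SLC7A5 and SLC7A1 lay above 10 on all control arrays and below 9 on all miR-365a-3p arrays, SLC3A2 overlapped between treatments in both lines, and SLC1A4 and SLC1A3 lay at the floor throughout.

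SLC7A5, the leucine carrier LAT1, showed the largest change of the 9 genes in both lines. On the MDA-MB-231 arrays its control values were 11.30, 10.99 and 11.43, and its values with miR-365a-3p were 7.60, 7.85 and 8.06. On the SKOV3 arrays they were 11.01 and 11.06 with control miRNA and 7.72, 8.83 and 8.64 with miR-365a-3p. Every miR-365a-3p array thus lay below every control array in both lines, and the controls of the lines overlapped. The difference was -3.40 ± 0.27 (SE) in MDA-MB-231, a 10.6-fold decrease with a limma adjusted p of 5.29e-05, and -2.64 ± 0.30 (SE) in SKOV3, a 6.24-fold decrease with a limma adjusted p of 0.000700. Only 5 of the 31325 genes had a more negative difference in MDA-MB-231, where SLC7A5 ranked 6, and it ranked 18 in SKOV3. The MDA-MB-231 mean with miR-365a-3p was 7.84, not far above the floor level of 7.43. Whether background limited the size of this fall was not tested. In an exact permutation test of treatment within both lines (two-sided, 200 arrangements), SLC7A5 gave p = 0.005, the smallest value this design can give. The call held in both lines without any single array. The LAT1 pseudogene SLC7A5P1 has a row of its own and was near the floor in all 4 groups, with means from 7.31 to 7.37.

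The arginine and lysine carrier SLC7A1 followed the same course. Its control values were 10.46, 10.58 and 10.90 in MDA-MB-231 and 10.28 and 10.18 in SKOV3. With miR-365a-3p they were 7.78, 7.73 and 7.79 in MDA-MB-231 and 7.69, 8.74 and 8.54 in SKOV3. In MDA-MB-231 the 3 treated arrays were close together, while in SKOV3 replicate 1 lay well below the other two. All treated arrays were below all controls of their line. The difference was -2.88 ± 0.24 (SE, limma adjusted p = 6.72e-05; 7.37-fold) in MDA-MB-231, rank 24 from the lowest of all genes, and -1.91 ± 0.27 (SE, limma adjusted p = 0.00193; 3.75-fold) in SKOV3, rank 117. The exact permutation p over both lines was 0.005. The MDA-MB-231 mean with miR-365a-3p, 7.77, was again not far above the floor level of 7.43, and a limit set by background was not tested.

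The promoters of both genes are printed because their mRNAs fell most. The windows run from 250 bases before the annotated start to 50 bases into the transcript on GRCh38.p14 (RefSeq), both on the minus strand, at chr16:87869458-87869757 within and upstream of SLC7A5 and at chr13:29595639-29595938 for SLC7A1. Capitals mark matches, on either strand, to 3 short motifs: the C/EBP-ATF element TGATGNAA, through which ATF4 and C/EBP factors are known to act in amino acid shortage, the antioxidant response element TGACNNNGC and the E-box CACGTG, which MYC and related factors can bind.
SLC7A5 promoter: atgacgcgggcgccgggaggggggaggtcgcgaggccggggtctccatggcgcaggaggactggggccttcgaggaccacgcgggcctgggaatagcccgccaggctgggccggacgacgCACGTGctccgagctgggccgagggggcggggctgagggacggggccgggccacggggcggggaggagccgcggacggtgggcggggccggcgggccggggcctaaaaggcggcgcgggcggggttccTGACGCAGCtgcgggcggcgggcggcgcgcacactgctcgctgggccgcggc
SLC7A1 promoter: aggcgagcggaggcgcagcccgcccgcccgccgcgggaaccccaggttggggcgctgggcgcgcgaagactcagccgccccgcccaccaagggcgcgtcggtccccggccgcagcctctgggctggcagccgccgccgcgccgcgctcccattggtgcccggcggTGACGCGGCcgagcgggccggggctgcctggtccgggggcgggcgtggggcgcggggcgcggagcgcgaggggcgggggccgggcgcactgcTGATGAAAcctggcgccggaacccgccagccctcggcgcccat

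In the SLC7A5 window the E-box begins 130 bases before the start and the antioxidant element 2 bases before it, and no C/EBP-ATF element was found. In the SLC7A1 window the antioxidant element begins 85 bases before the start and a C/EBP-ATF element begins 7 bases after it. Promoter windows were given for 8 of the 9 genes, 16 windows in all, since several genes have more than 1 annotated start. A C/EBP-ATF element was present in 6 of the 16 windows, each in a different gene, compared with 3.62% of the 35116 promoter windows of the table. The antioxidant element was in 5 of 16 (13.3% of all windows) and the E-box in 2 of 16, those of SLC7A5 and SLC1A5 (7.26% of all windows), and no matches overlapped. The C/EBP-ATF matches of the 6 genes are shown in capitals with their flanks, on the strand of the gene, so that a match of the opposite strand reads as its reverse complement. They include SLC7A1, SLC38A1 and SLC1A5, which fell in at least 1 line, and SLC3A2, SLC1A4 and SLC1A3, which were not called.
SLC7A1, chr13:29595639-29595938: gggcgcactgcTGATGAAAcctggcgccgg
SLC38A1, chr12:46266467-46266766: tcagacccgaaTGATGAAAagggatcagct
SLC1A5, chr19:46784765-46785064: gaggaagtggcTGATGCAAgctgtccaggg
SLC1A3, chr5:36596338-36596637: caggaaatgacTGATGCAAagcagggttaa
SLC1A4, chr2:64989149-64989448: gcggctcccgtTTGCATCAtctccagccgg
SLC3A2, chr11:62881449-62881748: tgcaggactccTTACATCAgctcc

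The coordinates are those of the 300-base windows, and the windows of SLC7A1, SLC38A1 and SLC1A5 lie on the minus strand. The matches in SLC1A5, SLC38A1, SLC3A2 and SLC1A4 belong to starts inside the annotated span of the gene, those in SLC7A1 and SLC1A3 to the outermost start. The windows of SLC7A5 and SLC38A2, which fell in both lines, hold no C/EBP-ATF match. Presence of the letters is a description of the window and was not related to the measured differences by any test.

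SLC3A2, the heavy chain that LAT1 and xCT share, did not pass the test in either line. Its values in MDA-MB-231 were 9.59, 9.84 and 10.04 with control miRNA and 9.51, 9.58 and 9.65 with miR-365a-3p. In SKOV3 they were 9.74 and 9.77 with control miRNA and 9.72, 9.22 and 9.76 with miR-365a-3p. The treated and control arrays overlapped in both lines. The difference was -0.24 in MDA-MB-231 (95% interval -0.58 to 0.11; limma adjusted p = 0.345) and -0.19 in SKOV3 (95% interval -0.58 to 0.20; limma adjusted p = 0.628). The intervals for its partner SLC7A5, -4.01 to -2.79 and -3.32 to -1.96, lay wholly below those of SLC3A2, so the light and heavy chain of LAT1 differed in their response on the same arrays. A fall of SLC3A2 of up to 0.58 is within the interval and cannot be set aside at this number of arrays.

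SLC7A11, the cystine carrier that pairs with the same heavy chain, was the only one of the 9 genes called higher. Its control values were 7.52, 7.47 and 7.50 in MDA-MB-231 and 7.49 and 7.55 in SKOV3. With miR-365a-3p they were 7.87, 7.82 and 7.75 in MDA-MB-231 and 7.89, 7.68 and 7.69 in SKOV3. Every treated array lay above every control array in each line, which was so for 21.0% of all genes in MDA-MB-231 and 23.7% in SKOV3. The differences were small, 0.32 ± 0.055 (SE, limma adjusted p = 0.00257) and 0.24 ± 0.061 (SE, limma adjusted p = 0.0332), and the control means, 7.50 and 7.52, lay just above the floor level of 7.43. On the values as deposited the differences shrank to 0.095 (limma adjusted p = 0.0613) and 0.063 (limma adjusted p = 0.315) and neither was called. In fits that each left out an array, the SKOV3 difference was 0.18 to 0.27. The SKOV3 call held in 7 of 11 of these fits, and was lost without either SKOV3 control array.

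**Figure D2:**
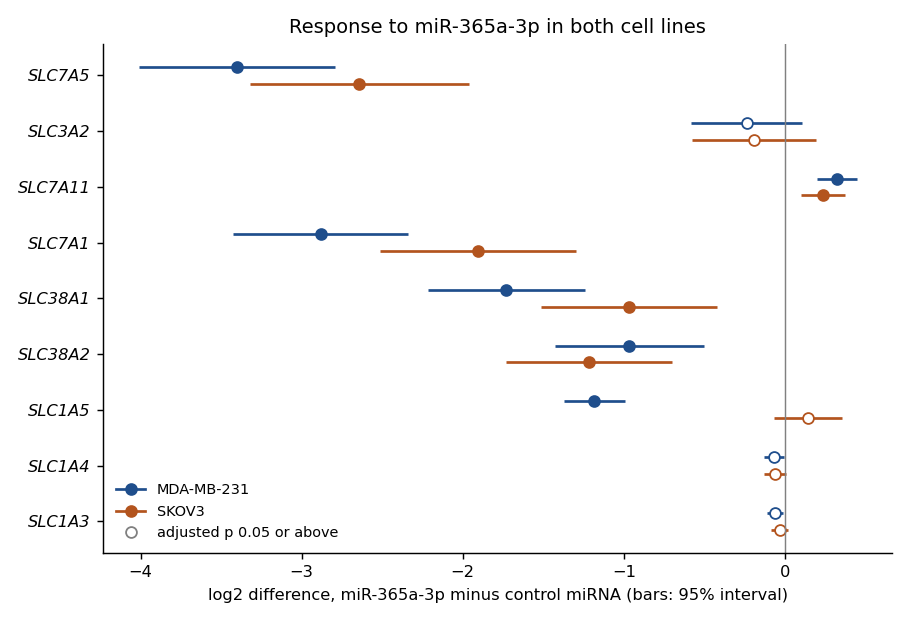
Log2 difference between miR-365a-3p and control miRNA (horizontal axis) for each of the 9 genes (vertical axis) in MDA-MB-231 (blue) and SKOV3 (orange), with 95% intervals from limma as bars. Filled points have an adjusted p under 0.05. SLC7A5 and SLC7A1 have the most negative differences in both lines, and SLC1A5 is at -1.18 in MDA-MB-231 and 0.15 in SKOV3.

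Of the glutamine carriers, SLC38A1 and SLC38A2 fell in both lines and SLC1A5 in MDA-MB-231. SLC38A1 read 9.76, 9.35 and 9.57 in MDA-MB-231 controls and 7.64, 7.84 and 8.01 with miR-365a-3p. In SKOV3 it read 9.18 and 9.20 in controls and 7.71, 8.61 and 8.35 with miR-365a-3p. No treated array reached a control array of its line. The difference was -1.73 ± 0.21 (SE, limma adjusted p = 0.000514) in MDA-MB-231 and -0.97 ± 0.24 (SE, limma adjusted p = 0.0279) in SKOV3, with an exact permutation p of 0.01 over both lines. The SKOV3 call was lost without SKOV3 control replicate 1 (limma adjusted p = 0.135) or 2 (limma adjusted p = 0.157), at almost the same difference.

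SLC38A2, which cells are known to raise in amino acid shortage, read 10.56, 9.84 and 9.88 in MDA-MB-231 controls and 9.01, 9.15 and 9.22 with miR-365a-3p. The SKOV3 values were 10.05 and 10.01 in controls and 8.53, 9.14 and 8.79 with miR-365a-3p. The groups were separate in both lines. The decrease was 1.95-fold in MDA-MB-231 (-0.97 ± 0.20, SE, limma adjusted p = 0.00735) and 2.32-fold in SKOV3 (-1.22 ± 0.23, SE, limma adjusted p = 0.00792), and the exact permutation p was 0.005. SLC38A2 was thus the only one of the called genes with a more negative difference in SKOV3, though the responses of the lines did not differ by the test (0.25, 95% interval -0.44 to 0.94; limma adjusted p = 0.837). In SKOV3 its call also depended on both controls, with limma adjusted p = 0.0636 and 0.0633 when 1 of them was left out.

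SLC1A5, the exchanger ASCT2, behaved differently in the 2 lines. Its MDA-MB-231 values were 9.94, 10.11 and 10.02 with control miRNA and 8.79, 8.81 and 8.92 with miR-365a-3p. Its SKOV3 values were 8.28 and 8.12 with control miRNA and 8.31, 8.51 and 8.21 with miR-365a-3p. The groups were far apart in MDA-MB-231 and overlapped in SKOV3. The difference was -1.18 ± 0.083 (SE, limma adjusted p = 3.11e-05; 2.27-fold) in MDA-MB-231 and 0.15 (95% interval -0.066 to 0.36; limma adjusted p = 0.435) in SKOV3, where its sign turned on the deposited values (-0.16) and after median centring (-0.12). SLC1A5 was the 1 gene of the 9 whose response differed between the lines, a call made for 2.54% of all genes (1.3% in its direction and 1.24% in the other). The interaction was -1.33 ± 0.12 (SE, limma adjusted p = 0.00127), with a 95% interval of -1.61 to -1.04. It was not called with a replicate block within each line (-1.40, limma adjusted p = 0.0501).

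SLC1A5 was also the 1 transporter of the 9 whose control level differed between the lines, a call made for 16.1% of all genes (7.76% higher and 8.34% lower in MDA-MB-231). It was 3.55-fold higher in MDA-MB-231 controls than in SKOV3 controls (1.83 ± 0.093, SE, limma adjusted p = 4.00e-06). Its order over the groups was therefore MDA-MB-231 control, MDA-MB-231 with miR-365a-3p, then both SKOV3 groups, which did not differ beyond their spread. The MDA-MB-231 arrays with miR-365a-3p, from 8.79 to 8.92, remained above all 5 SKOV3 arrays, the highest of which was 8.51. An exact permutation test of the cell line within treatments gave p = 0.005 for SLC1A5, 0.015 for SLC1A4, where the difference was -0.051 at the floor, and from 0.295 to 0.96 for the other 7 genes. For the other 8 transporters the control means of the lines differed by at most 0.42, in SLC7A1, and none was called (limma adjusted p from 0.442 to 0.944), although all MDA-MB-231 controls lay above both SKOV3 controls for SLC7A1 and SLC38A1, as they did for 22.7% of all genes.

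For SLC7A5, SLC7A1 and SLC38A1 the difference was more negative in MDA-MB-231 than in SKOV3, by 0.76, 0.97 and 0.76 on the log2 scale, but the interaction was not called (limma adjusted p = 0.499, 0.273 and 0.363). Without SKOV3 miR-365a-3p replicate 1, the interaction was called for all 3 genes, at -1.10 for SLC7A5 (limma adjusted p = 0.0395), -1.29 for SLC7A1 (limma adjusted p = 0.00718) and -1.02 for SLC38A1 (limma adjusted p = 0.0369), beside SLC1A5. On that array the 3 genes read 7.72, 7.69 and 7.71, close to the MDA-MB-231 arrays with miR-365a-3p, whereas the other two SKOV3 arrays with miR-365a-3p read from 8.35 to 8.83. Whether the lines differ for these 3 genes thus rests on 1 array. Their MDA-MB-231 means with miR-365a-3p were 7.84, 7.77 and 7.83, not far above the floor level of 7.43. Whether background limited these differences, and with them the interactions, was not tested.

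SLC1A4 and SLC1A3 were near the floor in all 4 groups, with group means from 7.30 to 7.41 and from 7.33 to 7.39. Their differences were -0.067 and -0.062 in MDA-MB-231 (limma adjusted p = 0.122 and 0.0583) and -0.061 and -0.031 in SKOV3 (limma adjusted p = 0.280 and 0.524). All 3 MDA-MB-231 arrays with miR-365a-3p lay below all 3 controls for both genes, as for 17.0% of all genes. Each gene gave an exact permutation p of 0.015. At these levels a change in mRNA cannot be read from the arrays.

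The spread of each array moved with the treatment. The 75th percentile of the deposited values was 7.86 to 7.93 in MDA-MB-231 controls and 7.56 to 7.65 with miR-365a-3p, and 7.98 to 8.04 in SKOV3 controls and 7.67 to 7.80 with miR-365a-3p. Within each line the treated arrays were all below the controls, so this measure and the treatment cannot be told apart. With the percentile as a covariate the standard errors grew 2.84-fold in MDA-MB-231 and 2.43-fold in SKOV3 at the median gene, and none of the 9 transporters was called in limma, while over all 31325 genes 62 were called lower and 22 higher in MDA-MB-231, and 56 lower and 17 higher in SKOV3. SLC7A5 was then at -2.17 and -1.49, and SLC7A1 at -1.75 and -0.85.

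**Figure D3:**
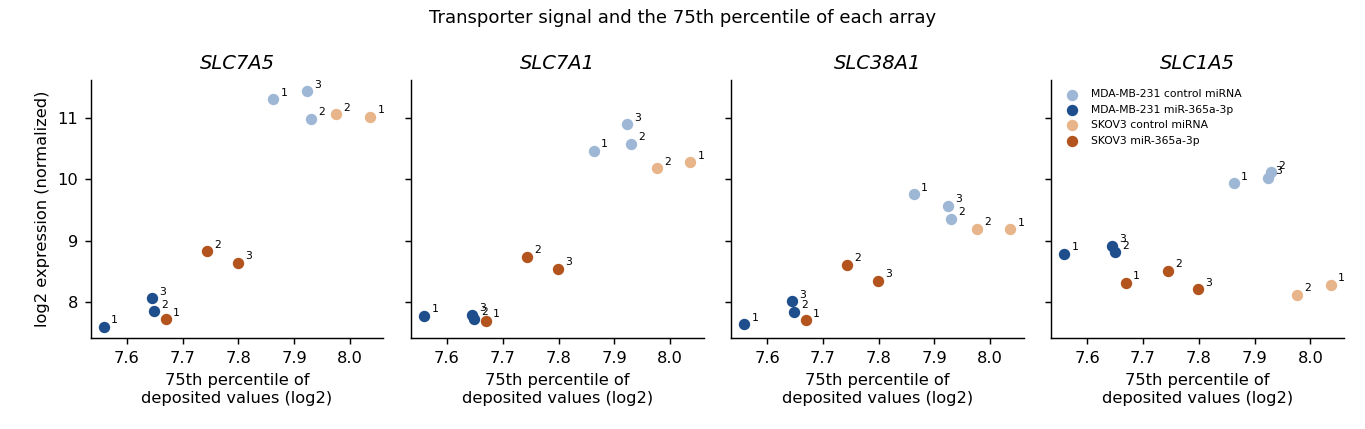
Normalized log2 expression (vertical axis) of SLC7A5, SLC7A1, SLC38A1 and SLC1A5 against the 75th percentile of each array's deposited log2 values (horizontal axis); points are the 11 arrays with their replicate numbers, coloured by group. The percentile is from 7.56 to 7.80 on miR-365a-3p arrays and from 7.86 to 8.04 on controls, and replicate 1 of SKOV3 with miR-365a-3p (7.67) lies beside the MDA-MB-231 arrays with miR-365a-3p for the first 3 genes.

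Across the 11 arrays the patterns of SLC7A5 and SLC7A1 were almost parallel (Pearson r = 0.99), SLC7A5 and SLC38A1 gave 0.98, SLC7A5 and SLC38A2 0.90 and SLC7A5 and SLC7A11 -0.97. SLC7A5 and SLC3A2 gave 0.50 and SLC7A5 and SLC1A5 0.47. These coefficients describe arrays that fall into treated and control clusters and carry no test. Among 6853 genes with a mean above 8, those most like SLC7A5 over the 11 arrays were POTEF, CNOT6 and SIN3A (r = 0.993 each). Among those most like SLC38A2 were C5orf21 (0.982) and FNBP4 (0.965), those most like SLC7A11 were C16orf68, LOC647009 (0.991 each) and THAP1 (0.989), and those most like SLC3A2 were LOC651816 (0.889), TUBB4Q (0.877) and POLR2D (0.848).

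Other plasma membrane amino acid transporters were read on the same arrays. Of 28 such genes, 9 had a mean above the floor level, 6 fell and 2 rose in MDA-MB-231, and 1 fell in SKOV3, with median differences of -0.0017 and -0.0015. The shares over all genes were 11.7% lower and 14.4% higher in MDA-MB-231, and 7.11% lower and 7.25% higher in SKOV3. SLC7A6, which exchanges arginine and neutral amino acids with the help of SLC3A2, fell by 0.50 in MDA-MB-231 (limma adjusted p = 0.00198) and was at -0.080 in SKOV3 (limma adjusted p = 0.735). SLC36A1, a proton-coupled carrier of small amino acids found on lysosomes as well, fell in both lines, by 0.41 and 0.16 (limma adjusted p = 5.05e-05 and 0.0174), the SKOV3 call being lost without SKOV3 control replicate 1 or 2 (limma adjusted p = 0.120 and 0.113). SLC7A3, a cationic amino acid carrier related to SLC7A1, rose by 0.46 in MDA-MB-231 (limma adjusted p = 0.000204) from a control mean of 7.41 and was at -0.029 in SKOV3 (limma adjusted p = 0.870), and its interaction was called (0.49, limma adjusted p = 0.00925) but not without SKOV3 control replicate 1 or 2 (limma adjusted p = 0.0544 and 0.0669).

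Genes of the amino acid response, the programme in which the kinase GCN2 and the factor ATF4 raise transporters and biosynthetic enzymes, are the known regulators and co-targets of several of the 9 transporters. Of 23 such genes, 13 fell and 2 rose in MDA-MB-231, and 6 fell and none rose in SKOV3 in limma, with median differences of -0.48 and -0.0042. Beside these counts, 11.7% of all genes fell and 14.4% rose in MDA-MB-231, and 7.11% fell and 7.25% rose in SKOV3. Of the 23 genes, 21 had a mean above the floor level. Among 15662 genes above the median signal, 3652 fell and 4675 rose in MDA-MB-231, and 2328 fell and 2804 rose in SKOV3. ATF4 itself was not called (-0.093 and 0.16; limma adjusted p = 0.657 and 0.555). EIF2AK4, which encodes GCN2, fell by 1.08 in MDA-MB-231 and fell by 1.53 in SKOV3 (limma adjusted p = 0.00345 and 0.00217). CEBPB, a partner of ATF4, fell by 1.25 and 0.86 (limma adjusted p = 0.00266 and 0.0448, the latter held in 4 of 11 fits that each left out an array), and ALDH18A1, an enzyme of proline synthesis, fell by 0.61 and 0.85 (limma adjusted p = 0.0282 and 0.0187). The ALDH18A1 call held in 7 of these 11 fits in MDA-MB-231 and in 9 in SKOV3. The SKOV3 count dropped to 4 without SKOV3 miR-365a-3p replicate 1 and to 3 and 2 without control replicates 1 and 2, while the MDA-MB-231 count of genes that fell was 11 to 14 under these settings and the other scalings, and 9 with a replicate block. The 2 genes that rose in MDA-MB-231 were 0 on the deposited values and 1 after median centring, and 3 without SKOV3 miR-365a-3p replicate 1.

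**Figure D4:**
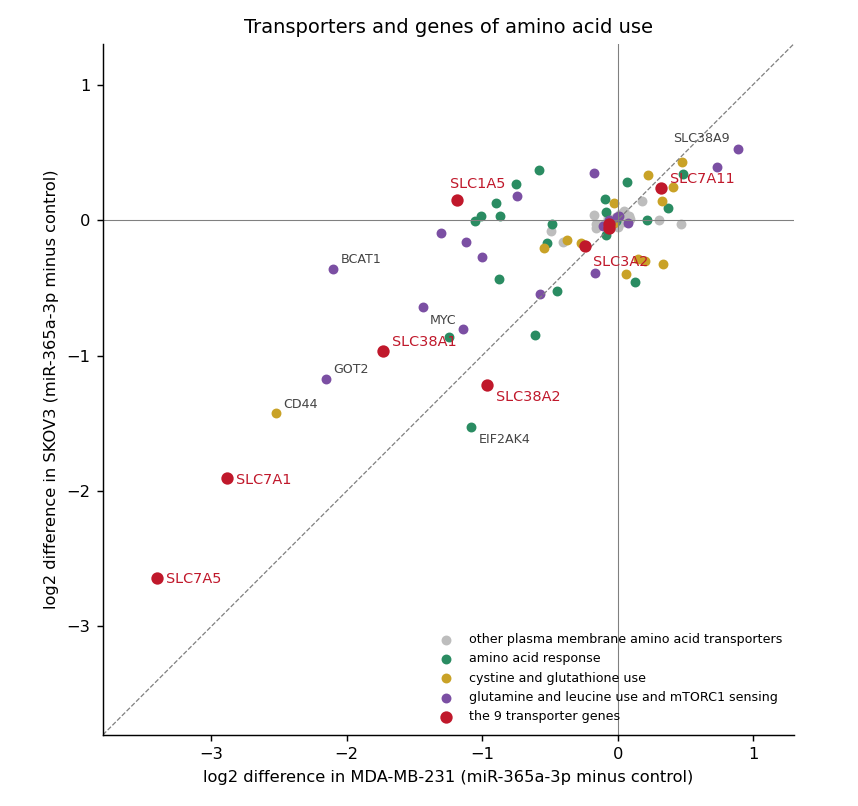
Log2 difference with miR-365a-3p in MDA-MB-231 (horizontal axis) and in SKOV3 (vertical axis) for the 9 transporters (red) and for 4 further gene lists; each point is a gene and the dashed line marks equal responses. SLC7A5 and SLC7A1 lie at the lower left beyond the genes of the other lists, and SLC1A5 lies near 0 in SKOV3 and at -1.18 in MDA-MB-231.

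The enzymes and sensors that act on the imported amino acids moved in both directions. Of 18 genes of glutamine and leucine use and of mTORC1 sensing, 10 fell and 2 rose in MDA-MB-231, and 4 fell and 2 rose in SKOV3. Over all genes, 11.7% fell and 14.4% rose in MDA-MB-231, and 7.11% fell and 7.25% rose in SKOV3. Of the 18 genes, 15 had a mean above the floor level. Among 15662 genes above the median signal, 3652 fell and 4675 rose in MDA-MB-231, and 2328 fell and 2804 rose in SKOV3. Without either SKOV3 control array the SKOV3 count of genes that fell was 2, GOT2 and MYC losing their calls, and the count that rose was 1 on the deposited values, after median centring and without SKOV3 control replicate 2, and 3 without SKOV3 miR-365a-3p replicate 1. GOT2, the mitochondrial aspartate aminotransferase, fell by 2.15 and 1.17 (limma adjusted p = 0.000277 and 0.0187). BCAT1, the cytosolic enzyme that transaminates leucine, fell by 2.10 in MDA-MB-231 (limma adjusted p = 8.44e-06) and was at -0.36 in SKOV3 (limma adjusted p = 0.0934), and its interaction was called (-1.74; limma adjusted p = 0.00132). MYC, a known activator of transporter genes including SLC7A5 and SLC1A5, fell by 1.44 and 0.64 (limma adjusted p = 7.81e-05 and 0.0145). MTOR, listed under its older symbol FRAP1, fell by 1.14 and 0.80, and RRAGC, one of the Rag GTPases that carry the amino acid signal to mTORC1, by 0.58 and 0.54. SLC38A9, the lysosomal arginine sensor of the same pathway, rose by 0.89 and 0.52 (limma adjusted p = 1.38e-05 and 0.000670), and RRAGB rose by 0.73 and 0.39 (limma adjusted p = 0.000127 and 0.00985). On the deposited values and after median centring RRAGB was at 0.12 and 0.16 in SKOV3 and was not called (limma adjusted p = 0.378 and 0.191).

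Around the cystine carrier SLC7A11, 14 genes of cystine and glutathione use were read, of which 2 fell and 3 rose in MDA-MB-231 and 2 fell and 1 rose in SKOV3. Of all genes, 11.7% fell and 14.4% rose in MDA-MB-231, and 7.11% fell and 7.25% rose in SKOV3. All 14 had a mean above the floor level. Among 15662 genes above the median signal, 3652 fell and 4675 rose in MDA-MB-231, and 2328 fell and 2804 rose in SKOV3. On the deposited values the split of the 14 genes was 4 lower and 1 higher in MDA-MB-231, and 5 lower and 1 higher in SKOV3. CD44, a surface glycoprotein known to hold xCT at the membrane, fell by 2.52 in MDA-MB-231 and fell by 1.43 in SKOV3 (limma adjusted p = 7.81e-05 and 0.00491). It is also on the MDA-MB-231 marker list, 2 of whose 5 genes fell in MDA-MB-231. TXN, encoding thioredoxin, rose by 0.48 and 0.43 (limma adjusted p = 0.00852 and 0.0380), the SKOV3 call holding in 3 of 11 fits that each left out an array. GSS, the glutathione synthetase, rose by 0.41 in MDA-MB-231 (limma adjusted p = 0.0267), a call lost on the deposited values, after median centring and after cyclic loess, and was at 0.24 in SKOV3 (limma adjusted p = 0.302).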

How the data were processed

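mRNA was measured on 11 arrays in 4 groups of cell line and treatment, grouped as the sample labels give them. Per the labels, RNA was extracted with Trizol and a miRVana kit and amplified to biotinylated cRNA. The values deposited by the authors are log2 intensities, 1 for each of 31325 gene symbols on each array. The study's text states quantile normalization in lumi, yet the 75th percentiles of the deposited columns ranged from 7.56 to 8.04. The transformation before normalization, the merging of probes and any background correction are not given in the sources used here, and no bead counts or detection values were used, so the number of arrays limits the precision.

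The deposited columns did not share a distribution and were quantile normalized across the 11 arrays (limma 3.58.1, R 4.3.3). lmFit with 4 group means and eBayes gave the contrasts, with Benjamini-Hochberg adjustment over all 31325 genes and a threshold of 0.05. Single genes were also tested by exact two-sided permutation (18 tests, unadjusted), for which MDA-MB-231 alone could not give a p below 0.1. The fit was tested on simulated data. The transporters and gene lists were chosen with earlier results of these data known. Named from the other lists are the 3 genes with the largest mean response among those called in at least 1 line, with further genes called in both lines where 5 or fewer are counted. Likeness was taken over genes with a mean above 8, and 3 genes were drawn for each transporter, of which 1 is not reported here. Alternatives were the deposited values, median centring, cyclic loess, array weights, an intensity trend, a filter at the median signal, stricter thresholds, separate fits, a replicate block, and each array left out. A covariate for the 75th percentile of each array and a block shared by the lines were chosen after seeing the data. Sequences and gene positions are from RefSeq on GRCh38.p14. Protein identity and seed sites in transcripts were not analysed here.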

Additional observations from a re-analysis of the deposited data

Results flagged for a closer look

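The response of SLC1A5 to miR-365a-3p differed between the cell lines by a test of the difference itself. The response in MDA-MB-231 minus that in SKOV3 was -1.33 on the log2 scale (limma adjusted p = 0.00127), with a 95% interval of -1.61 to -1.04. All 3 treated arrays were below all 3 controls in MDA-MB-231, and the treated and control arrays overlapped in SKOV3. Leaving out single arrays moved the value between -1.42 and -1.24. With a replicate block within each line it was -1.40 and was not called (limma adjusted p = 0.0501).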

How the results depend on the processing

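The calls of SLC7A5 and SLC7A1 in both lines held under each alternative except the covariate for the 75th percentile, under which no transporter was called lower or higher with miR-365a-3p (0 in each direction and line). In MDA-MB-231 the count of 5 genes that fell was 5 to 6 when single arrays were left out, SLC1A3 being added at -0.075 without MDA-MB-231 control replicate 3. The 1 gene that rose, SLC7A11, was 0 on the deposited values and at a minimum difference of 0.5. In SKOV3 its count was 0 on the deposited values, after median centring, with the replicate block, with the line fitted alone, at an adjusted p under 0.01 and at a minimum difference of 0.5, and 0 to 1 when single arrays were left out. The 4 genes that fell in SKOV3 ranged from 2 to 4 when single arrays were left out, with 2 (SLC7A5 and SLC7A1) without either control. The 1 gene that differed between the lines became 2 with array weights (SLC1A5 and SLC7A1) and 1 to 4 when single arrays were left out. The 1 gene higher in MDA-MB-231 controls became 1 to 2, with SLC7A1 added at 0.41 (limma adjusted p = 0.0465) without SKOV3 miR-365a-3p replicate 1.

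Whether replicate numbers pair treated with control samples could not be decided. Deviations from a mean of 2 or 3 arrays are tied to each other, and those of the 2 SKOV3 controls are mirror images. Over 6853 genes the deviations of same-numbered treated and control arrays correlated at -0.12, 0.042 and 0.23 in MDA-MB-231 and at 0.039 and -0.073 in SKOV3. Across the lines, same-numbered miR-365a-3p arrays correlated at 0.70, 0.31 and 0.34 and same-numbered control arrays at 0.12 and -0.13. Differently numbered miR-365a-3p arrays of the lines ranged from -0.74 to 0.64, the highest being MDA-MB-231 replicate 3 with SKOV3 replicate 2. Differently numbered treated and control arrays of MDA-MB-231 ranged from -0.47 to 0.35. With the replicate block, 2 transporters were called lower in SKOV3 and 0 differed between the lines, SLC1A5 having -1.40 (limma adjusted p = 0.0501). With a block shared by the lines, SLC1A5 was called (limma adjusted p = 0.0409). Among other transporters the SKOV3 call of SLC36A1 (limma adjusted p = 0.0977) and the SLC7A3 difference (limma adjusted p = 0.156) were lost with the replicate block.

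Signs turned for uncalled or small values. With the covariate, SLC7A11 was at -0.014 in MDA-MB-231 and -0.075 in SKOV3, SLC3A2 at 0.044 and 0.073, and SLC1A4 at 0.031 and 0.030, with 0.00077 for the SLC1A4 difference between the lines. SLC1A5 in SKOV3 was -0.16 on the deposited values and -0.12 after median centring. The difference between the lines for SLC3A2 was 0.049 with the replicate block, 0.062 with the shared block and -0.22 to 0.062 without single arrays. That for SLC1A4 was 0.041 on deposited values, 0.035 after median centring, 0.0099 after cyclic loess, 0.00022 with the shared block and -0.032 to 0.022 without single arrays. Between controls of the lines, SLC7A11 was 7.40e-05 with the replicate block and -0.045 to 0.0078 without single arrays, SLC3A2 was -0.016 with the replicate block, -0.046 with the shared block and -0.047 to 0.18 without single arrays, SLC38A2 was -0.021 on deposited values, -0.0068 after median centring, -0.024 with array weights and -0.17 to 0.19 without single arrays, and SLC1A3 was -0.0055 on deposited values and -0.0037 to 0.025 without single arrays. The cause of these changes was not tested. Over the single genes, 712 alternative values kept direction and side of the threshold, 30 lost a call, 8 gained one and 34 changed sign. Cyclic loess gave no comparison of the controls, separate fits none of the difference, and the filter at the median signal removed SLC1A4 and SLC1A3. With 2 SKOV3 controls, leaving 1 out assumes that the lone array varies like the other groups.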

Other observations

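Some further genes of the lists are named here, chosen after their values were seen. PYCR1, which makes proline, and ATF3, a stress-induced factor, were the 2 amino acid response genes that rose in MDA-MB-231, by 0.37 and 0.22 (limma adjusted p = 0.00492 and 0.000331), and they were at 0.090 and 0.0020 in SKOV3. On the deposited values neither was called in MDA-MB-231, at 0.040 and 0.065 (limma adjusted p = 0.677 and 0.0530), and the ATF3 control mean of 7.42 lay below the floor level. CBS, an enzyme that leads from homocysteine towards cysteine, fell by 0.40 in SKOV3 (limma adjusted p = 0.00289) and was near the floor in MDA-MB-231. ASNS and TRIB3, both known ATF4 targets, fell in MDA-MB-231 by 0.75 and 0.87 and were at 0.26 and 0.033 in SKOV3, and their responses differed between the lines (limma adjusted p = 0.00235 and 0.00137). With a replicate block the difference was called for TRIB3 (limma adjusted p = 0.0337) and not for ASNS (limma adjusted p = 0.0669). Both were higher in MDA-MB-231 controls than in SKOV3 controls, by 2.15 and 1.68 on the log2 scale, as SLC1A5 was. Of the 23 amino acid response genes, 10 were called higher and 1 lower in MDA-MB-231 controls, beside 7.76% and 8.34% of all genes. The interaction was called negative for 5 and positive for 1, beside 1.3% and 1.24%. PHGDH had a called interaction (-0.44, limma adjusted p = 0.0244) at a control difference of 0.0080. ATF4 was higher by 1.18 in MDA-MB-231 controls without a called interaction.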
